A study of Mus musculus with 18 samples.

Results

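The 10 regions described here are mouse imprinting control regions whose DNA is methylated on the allele inherited from the mother. They were chosen by gene and position, as mm9 windows of 4000 to 6000 bp at Plagl1, Snrpn, Peg3, Mest, Peg10, Grb10, Kcnq1ot1, Airn, Impact and Nnat, and the rule uses no methylation value. Together the windows held 104 of the 711980 CpGs that were read at least 5 times in each of 18 libraries, and 210 of the 1476285 CpGs that were read at least 5 times in any library. Methylation was measured by multiplexed reduced representation bisulfite sequencing, in which genomic DNA is cut at CCGG sites by MspI and unmethylated cytosines are converted by bisulfite, so that mainly CpG-rich DNA is read. The libraries came from mammary glands of inbred C57BL/6 female mice, from which cells labelled as epithelial stem cells, luminal progenitors and mature luminal cells were purified. Each cell type was sampled in retired breeders, whose age the labels do not give, in pregnant mice at days 10, 16 and 19, and in virgin mice at weeks 3 and 9. Each of these 6 stages gave 1 library per cell type, so that 1 retired, 3 pregnant and 2 virgin libraries stood for each cell type and the stages of 1 state served as its replicates.

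An imprinted gene is expressed from the copy of only 1 parent. Its control region acquires methylation in the germ line of 1 parent, in the oocyte for the regions named here, and the mark is kept in body cells through each division while the copy from the other parent stays unmethylated. A population of cells that keeps the imprint therefore has a level near the middle of the scale, where most other CpG-rich DNA is nearly free of methylation. The zinc finger protein ZFP57 is known to bind the motif TGCCGC when it is methylated, and so to protect imprints in the early embryo. Because the mice were inbred and the files give read counts and not reads, the maternal and paternal copies could not be told apart, and the parental origin of the methylation was not tested.

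Sequence is shown for the gene starts that were placed in the windows by at least 4 CpGs. The stretch shown for Plagl1 holds both middle and low levels, at 11 measured CpGs of 26. That of Nnat holds middle levels at 4 measured CpGs of 17, all after the start. RefSeq promoters, from 250 bases before to 50 bases after a gene's start, were given for 8 of the 10 genes on build GRCm38.p6, and Peg10 and Impact had none. They were set against the mm9 CpGs by the spacing of CpGs alone, without converting coordinates. A promoter of Grb10 (chr11:12037371-12037670) matched at 1 of 1439 placements, but with 3 CpGs only, and is not shown. The promoter of Plagl1 (chr10:13090582-13090881, plus strand) matched at 1 of 627 placements, with 11 of 11 measured CpGs falling on a CG. The promoter of Nnat (chr2:157559828-157560127, plus strand) matched at 1 of 1457 placements, with 4 of 4 CpGs. In the lines below, both read 5′ to 3′, the capitals mark each CG that was read at least 5 times in 1 or more libraries, and the gene starts at base 251.

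Plagl1: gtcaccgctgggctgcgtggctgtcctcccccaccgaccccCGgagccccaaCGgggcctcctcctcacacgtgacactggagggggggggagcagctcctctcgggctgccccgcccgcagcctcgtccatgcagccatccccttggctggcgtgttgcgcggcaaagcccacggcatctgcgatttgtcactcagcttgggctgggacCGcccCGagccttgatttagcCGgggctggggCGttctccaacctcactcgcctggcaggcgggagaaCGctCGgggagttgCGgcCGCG
Nnat: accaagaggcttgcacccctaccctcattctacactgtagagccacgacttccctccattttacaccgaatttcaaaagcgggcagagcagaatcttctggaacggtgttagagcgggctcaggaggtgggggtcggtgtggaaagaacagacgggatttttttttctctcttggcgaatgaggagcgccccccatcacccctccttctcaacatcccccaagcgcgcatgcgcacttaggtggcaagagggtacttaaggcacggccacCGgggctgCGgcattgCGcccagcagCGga

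In the Plagl1 promoter the 6 measured CpGs before the start (bases 42 to 243) had mean levels of 43.1 to 53.0%. The 5 CpGs just after the start (bases 279 to 299) had mean levels of 4.37 to 5.58%. The change from the middle to the bottom of the scale thus lay between base 243, 8 bases before the start, and base 279, 28 bases after it. Past the printed promoter the level rose again, to 26.3% at chr10:12810693, 39.8% at chr10:12810699 and 54.3% at chr10:12810763. In the Nnat promoter the 4 measured CpGs lay at bases 271 to 297, all after the start, and had mean levels of 46.7 to 50.4% over the 15 libraries that covered them. The motif TGCCGC, searched on both strands, was found in 6 of 14 promoters of the member genes (42.9%), at Plagl1, Snrpn, Mest, Grb10 and Nnat, with overlapping promoters for Mest. It was found in 11.6% of all 32851 promoters in the table and in 20.1% of those with 7 or more CpGs, the fewest that any of the 6 held. The 14 member promoters include some with fewer than 7 CpGs, so 42.9% and 20.1% are not over like sets. Of the 14, only those of Plagl1 and Nnat were placed in their windows by 4 or more CpGs. The shares therefore describe promoters of the genes and not the control regions. Counted by gene, the motif was found in 5 of 8 member genes and in 13.1% of all genes in the table. At Nnat the motif began at base 278 on the minus strand and took in the CpG at base 279, which had a level of 50.3 ± 18.1% (SD, n = 15 libraries). At Plagl1 it began at base 161, outside the CpGs that were read.

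The libraries held 17513287 reads summed over CpGs in the shallowest, retired mature, and 117922522 in the deepest, week 9 virgin mature, with a median of 10 to 70 reads per CpG. Within a window the median depth at a shared CpG was 8 to 14 reads in the shallowest library and 78 to 137 in the deepest. Such reads are not independent molecules, so errors from read counts cover counting only. Nothing in the labels ties a library to its own animals, so p-values measure the spread between these libraries, which may be technical. In 7 libraries (those of day 19, those of retired breeders and the progenitors of day 16) the files have 6 columns where the others have 4. The mean over the 10 windows was 44.0 ± 2.09% in these 7 libraries and 43.0 ± 3.07% in the other 11 (SD). All retired libraries were of the first kind and all virgin libraries of the second, so in the comparison of retired with virgin mice file layout and retirement cannot be told apart. No file measures expression, so the labelled cell types could not be checked against markers.

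All 10 windows had a level near the middle of the scale. The level of a window was taken as the unweighted mean over its shared CpGs, those with at least 5 reads in all 18 libraries. Window means over the 18 libraries ran from 40.5% at Plagl1 to 46.6% at Snrpn. Of the 180 values of 10 windows in 18 libraries, 153 (85%) lay between 30 and 60%, and 146 lay under 50%. The lowest was 18.3% at Peg3 in retired mature cells, and the highest was 71.5% at Airn in day 16 pregnant progenitors. No window lost or gained its methylation in full in any library.

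**Figure D1:**
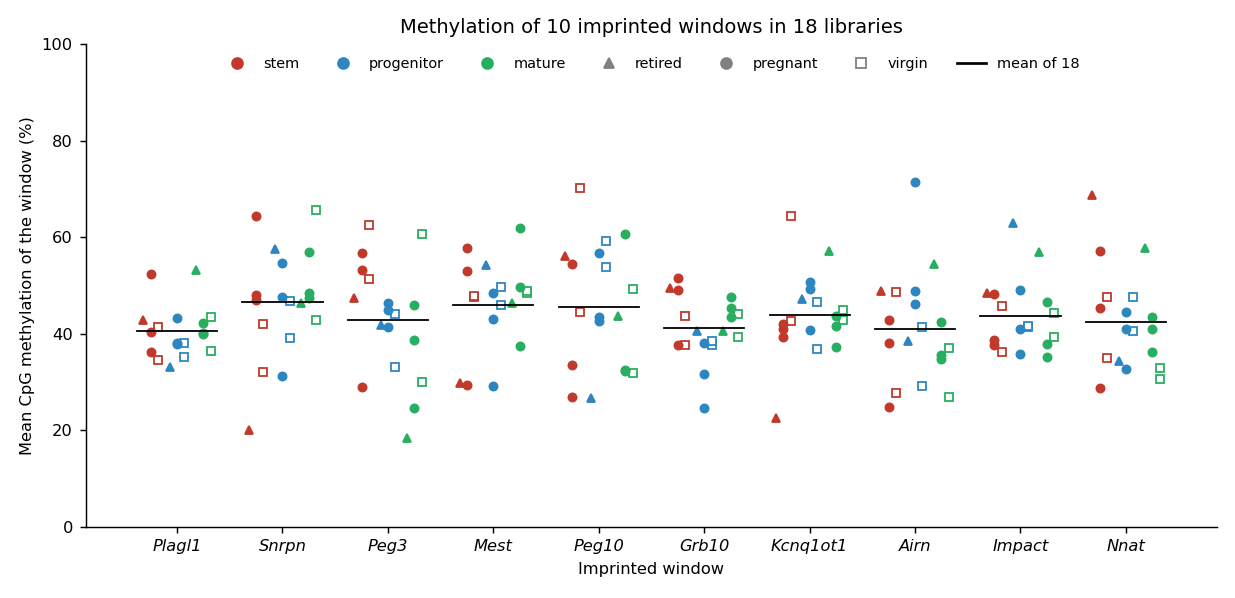
Mean CpG methylation (%) of each imprinted window in each of the 18 libraries, with color for the cell type, shape for the state and a line for the mean of 18. The window means lie between 40.5 and 46.6%, and the single values spread from 18.3 to 71.5% around them with no window at the top or the bottom of the scale.

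Plagl1 encodes a zinc finger transcription factor that restrains growth of cells. Its window (chr10:12809001-12813000) had the most shared CpGs, 28, and the smallest spread, 40.5 ± 5.44% (SD, n = 18 libraries, as for the windows below). Retired progenitors had the lowest level, 33.0%, the median library 40.0% and retired mature cells the highest, 53.2%. Grb10 encodes an adaptor protein that restrains signalling from the insulin receptor. Its window (chr11:11924001-11928000) held 27 shared CpGs of 73 listed and had 41.1 ± 6.58%. Day 16 pregnant progenitors had the lowest level, 24.6%, the median library 40.6% and day 10 pregnant stem cells the highest, 51.6%. These 2 windows, with the most CpGs behind each value, were also those with the smallest SD.

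The long noncoding RNAs Kcnq1ot1 and Airn are transcribed from the unmethylated paternal copy of their control regions and silence neighbouring genes on the same chromosome. The Kcnq1ot1 window (chr7:150480001-150484000, 8 shared CpGs) had 43.9 ± 8.72%, with 22.5% in retired stem cells as the lowest, 42.7% as the median and 64.4% in week 9 virgin stem cells as the highest value. The Airn window (chr17:12933001-12937000, 6 shared CpGs) had 41.0 ± 11.4%. Here the lowest and the highest library both came from day 16 of pregnancy, 24.8% in stem cells and 71.5% in progenitors, around a median of 39.9%.

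Snrpn encodes a protein of the small nuclear ribonucleoproteins that splice RNA, and Peg3 a zinc finger protein known for its part in maternal behaviour in mice. Snrpn (chr7:67147001-67152000) rested on 3 shared CpGs and had 46.6 ± 11.4%, from 20.1% in retired stem cells through a median of 47.2% to 65.7% in week 9 virgin mature cells. Peg3 (chr7:6679001-6685000) rested on 4 shared CpGs within 65 bp and had 42.8 ± 12.2%, from 18.3% in retired mature cells through a median of 44.5% to 62.5% in week 9 virgin stem cells. Mest encodes a protein of the hydrolase fold family, and Peg10 a protein derived from a retrotransposon that mouse placenta needs. Mest (chr6:30684001-30690000, 5 shared CpGs) had 46.0 ± 9.26%, from 29.2% in day 16 pregnant progenitors through a median of 48.1% to 61.9% in day 19 pregnant mature cells. Peg10 (chr6:4695001-4700000, 4 shared CpGs within 14 bp) had the widest spread, 45.5 ± 12.9%, from 26.7% in retired progenitors through a median of 44.1% to 70.3% in week 9 virgin stem cells.

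Impact encodes a regulator of translation, and Nnat, neuronatin, a small membrane protein. The Impact window (chr18:13129001-13134000, 10 shared CpGs) had 43.7 ± 7.46%, from 35.3% in day 10 pregnant mature cells through a median of 41.4% to 62.9% in retired progenitors. The Nnat window (chr2:157384001-157389000, 9 shared CpGs) had 42.5 ± 10.5%, from 28.8% in day 19 pregnant stem cells through a median of 41.0% to 68.8% in retired stem cells. The order of the 10 window means was not tested, and Plagl1 was lowest only with a run of low CpGs described below included.

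At single CpGs the libraries varied more than counting of reads gives. The variance of a shared window CpG between libraries was a median of 2.73 times the binomial one. Among CpGs with a mean level of 30 to 60%, this ratio was a median of 2.87 over the 90 in the windows and 3.18 over the 41950 elsewhere.

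Across libraries the correlations between levels of different windows centred near 0. Over the 18 libraries, Pearson's r between the levels of 2 windows had a median of 0.0158 over the 45 pairs, from -0.658 for Snrpn with Peg10 to 0.575 for Plagl1 with Nnat. The pairs beyond 0.5 in size were these 2, Snrpn with Nnat (-0.655), Mest with Nnat (-0.550) and Grb10 with Airn (-0.515). Stretches of shared CpGs within 1 window, set apart by gaps of at least 100 bp, had a median r of 0.0332 over 21 pairs and a range of -0.469 to 0.541. The highest of these joined the first and second stretches of Impact. These values are descriptions over 18 libraries that share depth and stage, and stretches of 1 window share an allele. The mean over all 10 windows was 38.8% in the lowest library (week 3 virgin mature) and 49.8% in the highest (week 9 virgin stem). It averaged 44.9 ± 2.28% in the 3 retired libraries, 43.0 ± 1.95% in the 9 pregnant libraries and 43.1 ± 3.89% in the 6 virgin libraries (SD).

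Along the windows most CpGs sat in the middle of the scale, with a few low stretches. Of the 104 shared CpGs, 90 (86.5%) had a mean level of 30 to 60%, 12 lay under 30% and 2 over 60%. Outside the windows 41950 of 711876 shared CpGs (5.89%) lay in that range. All 12 low CpGs belonged to 3 short runs at Plagl1, Grb10 and Nnat. These runs were picked out after their values were seen and have no test.

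At Plagl1 the low run was 5 CpGs within 23 bp (chr10:12810670-12810693), 4 of which lie in the promoter printed above, just after the gene's start. Their mean was 9.06 ± 8.68%, with 2.22% in the lowest library, 6.55% in the median library and 33.7% in the highest, day 16 pregnant stem cells. The other 23 shared CpGs of the window had 47.3 ± 5.82%. The run lay below them in 18 of 18 libraries. Its median depth was 24 reads, against 40 at the other CpGs. The 4 CpGs of the run in the promoter had mean levels of 4.37 to 5.19%, and its last CpG had 26.3%.

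At Nnat the low run was 3 CpGs within 10 bp (chr2:157386203-157386213), downstream of the promoter printed above. It had 25.8 ± 16.0%, where the other 6 shared CpGs had 50.9 ± 9.85%, and lay below them in 18 of 18 libraries. The first shared CpG of this window, at chr2:157384039, had the highest level of any shared window CpG, 70.0 ± 16.7%. At Grb10 a run of 4 CpGs within 18 bp (chr11:11926241-11926259) had 23.9 ± 13.0%, where the other 23 had 44.1 ± 6.89%, and lay below them in 16 of 18 libraries. At Airn, CpGs at chr17:12935248 and chr17:12935250 averaged 10.5 and 10.9% over the 13 libraries that covered them.

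**Figure D2:**
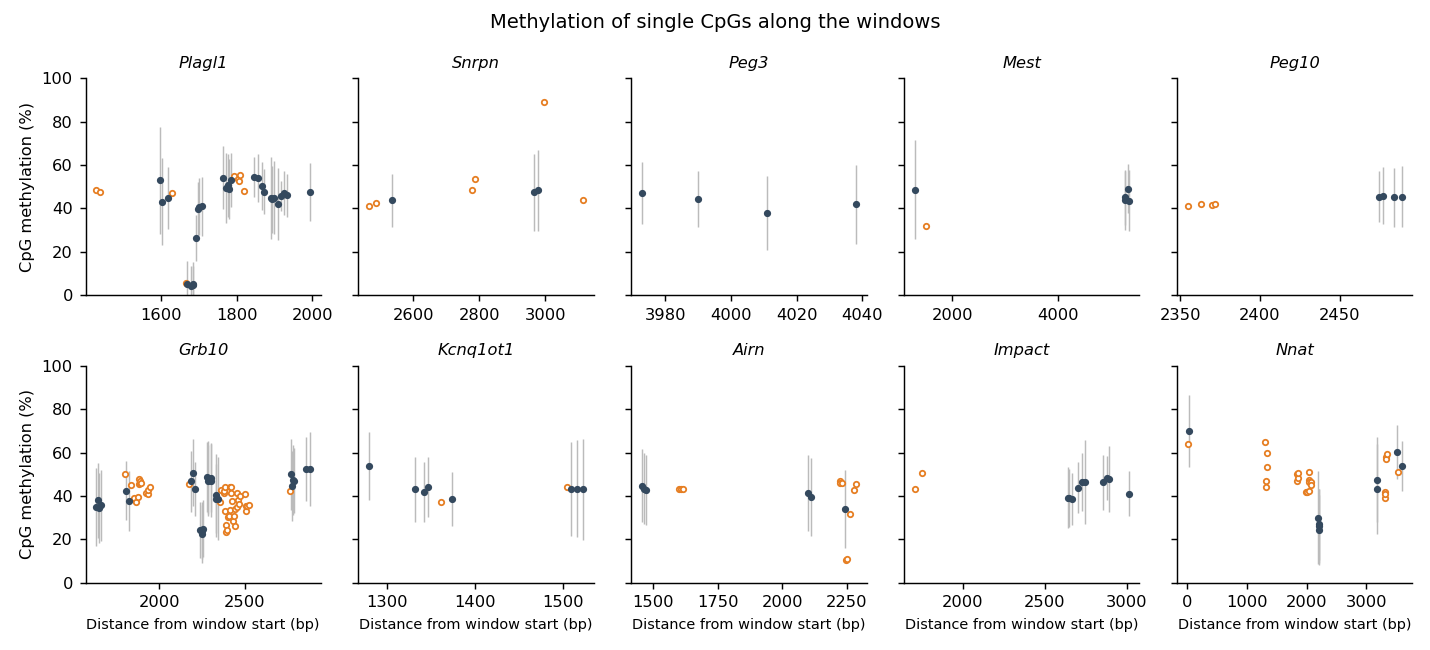
Mean methylation (%) of single CpGs against their distance from the start of the window (bp), for each of the 10 windows. Filled points are the 104 CpGs read at least 5 times in all 18 libraries, with bars for the SD over libraries, and open points are CpGs read in fewer libraries; most points lie between 30 and 60%, and the runs at Plagl1, Grb10 and Nnat fall below.

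Few other CpG-dense regions had such levels. The genome was cut into 1000 bp tiles with at least 3 shared CpGs, which gave 77064 tiles, 12 of them in the windows. Peg3 had none, because its 4 CpGs fall in 2 tiles. A mean level of 35 to 55% was found in 3501 tiles (4.54%) and in 11 of the 12 window tiles, the exception being the Nnat tile with the low run, at 26.8%. Among the 4311 tiles with 20 or more shared CpGs, which had a median level of 0.332%, only 10 (0.232%) had a mean level of 35 to 55%, and 2 of these 10 were the tiles at Plagl1 (28 CpGs, 43.5%) and Grb10 (21 CpGs, 43.6%). Control regions of other imprinted genes are known that were not among the 10 windows, and the other 8 tiles were not assigned to genes.

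Between libraries the window tiles varied about as much as other tiles of the same level. Tiles with a mean level of 35 to 55% had a median SD of 10.6 points. The Plagl1 tile, at 6.01 points, had a smaller spread than most of them, since 7.51% of these tiles varied less, and the denser Grb10 tile, at 6.41 points, had 9.68% below it. At the other end 83.7% of these tiles varied less than the first Airn tile, at 16.2 points. Tiles in this range with 10 or more CpGs had a median SD of 7.08 points (147 tiles), so the number of CpGs moves with the spread. Of these 147 tiles, 43 varied less than the Plagl1 tile and 52 less than the denser Grb10 tile.

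**Figure D3:**
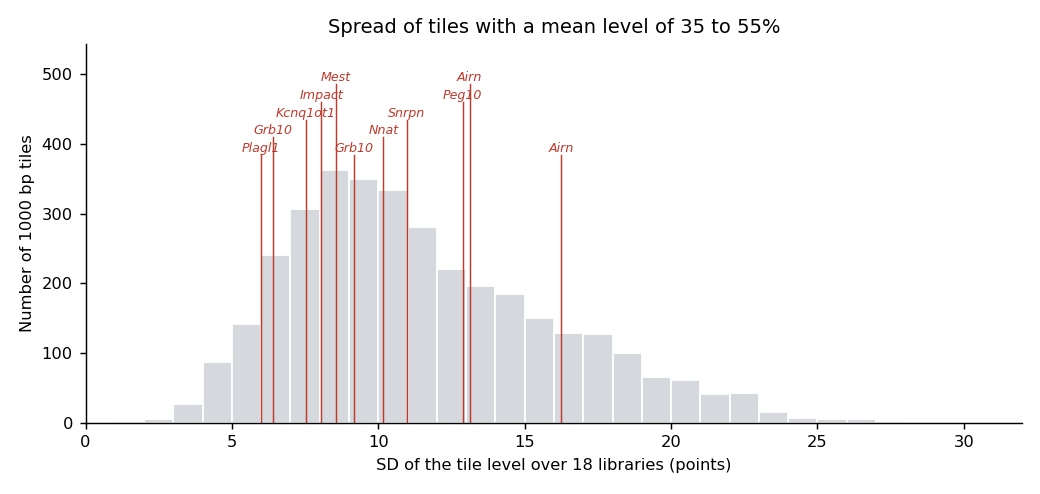
Number of 1000 bp tiles against the SD of the tile level over 18 libraries (points), for tiles with a mean level of 35 to 55%; gray bars are tiles outside the windows and each red line is a window tile, named by its gene. The window tiles run from 6.01 points at Plagl1 to 16.2 points at Airn, across the bulk of the other tiles, whose median is 10.6 points.

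The main comparison asked whether pregnancy was accompanied by a change of methylation, and the imprinted windows gave no tile that passed the test. Each tile was tested with a quasi-binomial logistic regression with Benjamini-Hochberg adjustment over all 77064 tiles, with a call made where the adjusted p was under 0.05 and the levels differed by 10 points or more. Pregnant against virgin stem cells gave 181 called tiles over the genome (0.235%) and 0 of the 12 window tiles. The count over the genome was unstable, with 0 to 1360 tiles when 1 library was left out, 17 without the deepest 1% of CpGs and 8 with tiles of 500 bp. By limma, run on the log2 ratio of methylated to unmethylated reads, no tile was called in the windows or over the genome. At an unadjusted p under 0.05, 1 of 12 window tiles passed, against 14.3% of all tiles. That tile was at Grb10 (chr11:11926001-11927000), where pregnant stem cells were higher by 8.69 points, with an adjusted p of 0.300. The median size of the difference was 5.24 points over the 12 window tiles and 10.4 points over the 3501 tiles with a mean level of 35 to 55%. In progenitors it was 7.15 points over the window tiles and 4.48 over the others, and in mature cells 2.65 and 4.48 points.

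In progenitors and in mature cells 0 tiles were called in the windows, where 0% of all tiles were called in either cell type. Unadjusted, 0 of 12 window tiles passed in progenitors (3.76% of all tiles) and 1 of 12 in mature cells (5.08% of all tiles). With the 3 cell types averaged, 0 of 12 passed unadjusted (6.52% of all tiles) and 0 were called (0% of all tiles). Whether pregnancy had a different effect in 2 cell types was tested directly. The Grb10 tile came nearest, with a pregnancy effect 14.3 points higher in stem cells than in progenitors, an unadjusted p of 0.00831 and an adjusted p of 0.297. For stem cells minus progenitors 1 of 12 window tiles passed unadjusted (10.5% of all tiles), for stem minus mature cells 0 (11.4%) and for progenitors minus mature cells 1 (4.66%). In none of these 3 tests was any tile called, in the windows or over the genome (0%).

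Taken as whole windows, levels of pregnant and virgin libraries were also compared by an exact permutation test of 3 against 2 libraries, two-sided, whose smallest possible p is 0.1. In stem cells the groups did not overlap at 2 of 10 windows, Snrpn and Kcnq1ot1, while they did not overlap at 26.1% of all tiles (pregnant higher at 8.06% and lower at 18%). Here and in the shares below, the level of a tile pools its reads, where the level of a window averages its CpGs. With reads pooled over the window, the groups overlapped at both Snrpn and Kcnq1ot1. At Snrpn the levels were 48.0, 47.0 and 64.4% in stem cells of pregnant mice at days 10, 16 and 19, against 42.0 and 32.1% in those of virgin mice at weeks 3 and 9. The pregnant libraries were all higher, by 16.0 points on average (exact p = 0.1), and the highest of them, day 19, stood well apart from the others. Without the day 19 library the difference was 10.4 points. With each library on its own CpGs of 5 or more reads it was 6.62 points.

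At Kcnq1ot1 the levels were 41.1, 41.9 and 39.2% in stem cells of pregnant mice, against 42.6 and 64.4% in those of virgin mice at weeks 3 and 9. The pregnant libraries were all lower, by 12.8 points on average (exact p = 0.1), but the week 3 library lay within 1 point of the nearest pregnant one. The difference was -1.92 points without the week 9 virgin library and was -23.7 points without the week 3 virgin library. The retired stem library was lower than all of these at both windows, with 20.1% at Snrpn and 22.5% at Kcnq1ot1. The largest difference in stem cells was at Peg10, with 54.4, 33.5 and 26.9% in pregnant against 44.6 and 70.3% in virgin mice, -19.1 points (exact p = 0.3), where the groups overlapped. Over the 10 windows 5 were higher and 5 lower in stem cells of pregnant mice, with a median difference of -0.301 points.

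In progenitors the groups did not overlap at 1 of 10 windows, Airn, and at 16.1% of all tiles (pregnant higher at 7.89% and lower at 8.24%). Its levels were 46.1, 71.5 and 48.9% in progenitors of pregnant mice at days 10, 16 and 19, against 41.3 and 29.2% in those of virgin mice. The difference of 20.2 points (exact p = 0.2) was carried in large part by day 16, and it was 12.3 points without that library. The day 16 progenitor library had a median of 11 reads per CpG, against 19 to 58 in the other progenitor libraries compared. Its file and that of day 19 have 6 columns, where those of the other progenitors compared have 4. Whether depth or file layout plays a part was not tested. In mature cells the groups did not overlap at Nnat, 1 of 10 windows, and at 15.3% of all tiles (pregnant higher at 6.57% and lower at 8.72%). Nnat had 36.2, 43.5 and 41.0% in mature cells of pregnant mice, against 32.9 and 30.5% in those of virgin mice, a difference of 8.55 points (exact p = 0.2). Where CpGs needed at least 10 reads in all libraries, only the CpG at chr2:157387594 remained, and there the difference was -5.49 points. With the 3 cell types of a stage averaged, the groups did not overlap at Airn, 1 of 10 windows, and at 18.5% of all tiles. Airn had 42.8% in pregnant and 35.1% in virgin stages, a difference of 7.65 points (exact p = 0.1), which was 3.45 points without the day 16 progenitor library. At Impact the differences were 0.467, 0.558 and -1.93 points in stem cells, progenitors and mature cells, the smallest set among the 10 windows.

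**Figure D4:**
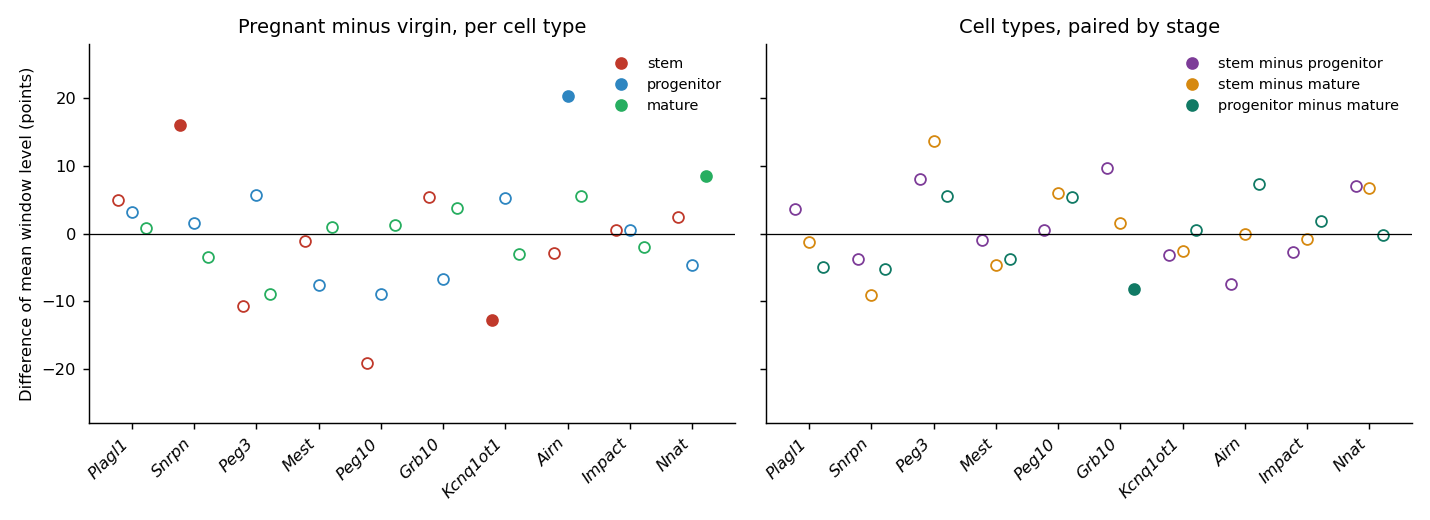
Difference of the mean window level (points) for each imprinted window, pregnant minus virgin in each cell type (left) and between cell types paired by stage (right). Filled points mark windows whose pregnant and virgin libraries do not overlap (left) or whose 6 stages all differ in 1 direction (right); most points are open and lie on both sides of 0, and the filled points are Snrpn and Kcnq1ot1 in stem cells, Airn in progenitors, Nnat in mature cells and Grb10 in progenitors minus mature cells.

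Retired breeders were compared with the other states over the 3 cell types. The median size of the difference from virgin mice was 10.0 points over the window tiles and 5.27 points over the tiles with a mean level of 35 to 55%. For the difference from pregnant mice these values were 5.18 and 5.56 points. The retired libraries were among the shallowest, with a median of 13, 10 and 10 reads per CpG in stem cells, progenitors and mature cells. Whether depth plays a part was not tested. Against virgin mice, 0 window tiles were called (0% of all tiles) and 1 of 12 passed unadjusted (5.3% of all tiles). Against pregnant mice, 0 window tiles were called (0% of all tiles) and 1 of 12 passed unadjusted (4.82% of all tiles). The tile was in both cases the one at Impact (chr18:13131001-13132000). It had 49.7, 63.0 and 58.1% in retired stem cells, progenitors and mature cells. In the 6 virgin libraries it had 37.9, 41.9 and 38.5% at week 3 and 46.8, 42.0 and 44.5% at week 9, in the same order of cell types. The fit gave a difference of 15.0 points between retired and virgin mice, with an unadjusted p of 0.0251 and an adjusted p of 0.885. The 9 pregnant libraries ran from 34.7 to 54.7% at this tile and overlapped with the retired ones. Among them the 4 with files of 6 columns, as in retired mice, had 37.1% in day 16 progenitors and 42.2, 50.8 and 37.0% in day 19 stem cells, progenitors and mature cells. With 1 retired library per cell type, the spread within that state was taken from the other groups.

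Virgin mice of week 9 were compared with those of week 3 within cell types. Again 0 window tiles were called (0% of all tiles), and 2 of 12 passed unadjusted (6.27% of all tiles), at Kcnq1ot1 and Plagl1. The Kcnq1ot1 tile had 61.5, 48.6 and 49.0% at week 9 in stem cells, progenitors and mature cells, against 44.9, 36.5 and 40.6% at week 3. All 3 cell types were higher at week 9, by 12.4 points in the fit (unadjusted p = 0.0111, adjusted p = 0.788). The Plagl1 tile was higher by 5.05 points in the fit (adjusted p = 0.796), though in progenitors it had 38.1% at week 9 and 38.2% at week 3. Peg3, which has no tile, was tested as a whole window beside the tiles, a test added after the data had been seen. It had 62.5, 44.1 and 60.6% at week 9, against 51.3, 33.0 and 30.03% at week 3. The fit gave 17.6 points more at week 9, with an unadjusted p of 0.00617 and an adjusted p of 0.788. This whole-window test was run on all 10 windows in 13 comparisons, and none was called. For week 9 against week 3 its difference was above 0 at every window, from 0.981 points at Peg10 to 17.6 at Peg3. The mean over the 10 windows was 40.5, 42.0 and 38.8% at week 3 in stem cells, progenitors and mature cells. At week 9 it was 49.8, 42.6 and 45.1%. Within a cell type single windows could go the other way, as Snrpn in stem cells (42.0 and 32.1%). This shared direction was not tested. In the other comparisons the unadjusted p of Peg3 was 0.111 or more, and some other windows passed unadjusted.

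Cell types were compared within stages. In all 3 comparisons 0 window tiles were called (0% of all tiles). Unadjusted, 1 of 12 window tiles passed for stem cells against progenitors (9.23% of all tiles), 1 for stem against mature cells (10.9%) and 2 for progenitors against mature cells (5.95%). For whole windows, an exact permutation test that exchanged the cell types within the 6 stages, two-sided, has a smallest possible p of 0.031. None of the 10 windows reached an exact p under 0.05 for stem cells against progenitors (3.54% of all tiles) or for stem against mature cells (3.62% of all tiles). For progenitors against mature cells 1 of 10 did, Grb10 (2.33% of all tiles).

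At Grb10 progenitors had 37.7, 38.5, 31.6, 24.6, 38.2 and 40.6% over the 6 stages, from week 3 and week 9 virgin mice through pregnancy days 10, 16 and 19 to retired breeders. Mature cells had 39.3, 44.0, 45.3, 47.6, 43.4 and 40.6% at the same stages. Progenitors were lower in 6 of 6 stages, by 8.16 points on average (exact p = 0.031, the smallest the test can give, among 30 such tests). The gap was widest at day 16 of pregnancy, at -23.0 points, and was -0.0071 points in retired breeders. The day 16 libraries had a median of 11 reads per CpG in progenitors and 18 in mature cells. Without the day 16 stage the gap was -5.19 points. In stages where both files have 4 columns (3 stages) it averaged -6.90 points, and where both have 6 columns (2 stages) -2.64 points. With CpGs of at least 10 reads the difference was -11.3 points (exact p = 0.0625), and with each library on its own CpGs of 5 or more reads -5.00 points (exact p = 0.156). In the fit across tiles the denser Grb10 tile had a difference of -8.07 points for progenitors minus mature cells, with an adjusted p of 0.837. The largest difference between cell types was at Peg3, where stem cells were 13.6 points above mature cells on average (exact p = 0.0938), and above them in 5 of 6 stages.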

How the data were processed

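The deposited files list 1 CpG per line with the methylated reads over all reads, on build mm9 per the submitters' processing notes; 7 of the 18 files add a score that the authors deposited, which is 1000 times the methylated share and was not used further. How reads were aligned, called and deduplicated is not given in the sources used here. These other values, pairs of read counts per CpG as deposited, were not normalized.

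The rule for the windows uses gene and position alone, but members and lists were chosen with earlier results of these data known. All 10 windows are named. CpGs with 5 or more reads in all 18 libraries were kept. Tiles of 1000 bp holding 3 or more such CpGs had their reads summed and were fitted with a quasi-binomial logistic regression over all 18 libraries, with dispersion moderated across 77064 tiles and held at 1 or above, an F test and Benjamini-Hochberg adjustment. Cell types and virgin stages were fitted with cell type plus stage, the other comparisons with 9 groups of cell type by state. Window levels were compared by exact permutation tests, pairing cell types by stage as the labels give it. Alternatives were 10 reads, each library on its own CpGs, no CpGs in the deepest 1%, reads pooled by window, 500 bp tiles, calls at 20 points, limma with a pseudocount of 1, and leaving out each library. No mm9 annotation was used, so exons and introns are not given. Python 3.11.15, numpy 2.4.6, scipy 1.17.1, pandas 2.3.3, R 4.3.3 and limma 3.58.1 were used.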

Additional observations from a re-analysis of the deposited data

How the results depend on the processing

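No window tile was called in the 328 alternatives for called tiles, limma and leaving out each library (0 to 0) included. In 293 of them 0 tiles were called over the genome either, so the windows' 0 was nearly fixed there; in the other 35 the count over the genome ran from 1 to 1360. Of 97 alternatives for counts of windows 51 kept the count, and of 49 for window levels 47. The 97 include the tests of cell types, where windows were counted by an exact p under 0.05. With a library left out those tests cannot pass, so counts of 0 for stem cells against the other cell types were kept in advance. The counts in the rest of this paragraph are of windows without overlap between pregnant and virgin libraries. In stem cells 2 became 0 with reads pooled over the window. In progenitors 1 became 2 without the deepest 1% of CpGs and 3 with pooled reads. In mature cells 1 became 3 at 10 reads and 0 with any CpG of 5 reads. Averaged over cell types 1 became 3 at 10 reads and with pooled reads, and 2 with any CpG of 5 reads or without the deepest 1%. Leaving out 1 library gave 3 to 6 windows in stem cells, 2 to 5 in progenitors, 2 to 6 in mature cells and 0 to 3 for the average; fewer libraries overlap less by construction.

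For stem cells against progenitors 0 windows became 1 with any CpG of 5 reads, with pooled reads and with no replicate block, where cell types were not paired by stage. For progenitors against mature cells 1 became 0 at 10 reads, with any CpG of 5 reads, without the deepest 1% and with pooled reads. Leaving out a library leaves 5 stages and no exact p under 0.0625, so the 0 to 0 windows found there say nothing of stability. Without the block the Grb10 difference of -8.16 points had an exact p of 0.00433.

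At 10 reads the level was 46.7% at Plagl1, where fewer CpGs remained. It was 53.9% at Nnat, where only the CpG at chr2:157387594 remained. The Nnat difference in mature cells was -5.49 points at this CpG, the reverse of the sign over the window. The cause of the other moves was not tested. Limits are the 3 to 10 shared CpGs behind 8 of the 10 windows, depth, and 1 library per cell type and stage.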
